A study of Homo sapiens with 6 samples.

Results

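MHC class I antigen presentation was followed through 9 genes, taken by their symbols in the platform annotation: the light chain B2M, the heavy chains HLA-B, HLA-C, HLA-E and HLA-F, the peptide transporter subunits TAP1 and TAP2, the loading chaperone TAPBP and the trimming enzyme ERAP1. They are 9 of the 18852 genes named in that annotation, and all their probes were used, 16 of the 48803 on each array. The cells were ES-2, an established human ovarian clear cell carcinoma line, grown in DMEM/F12 with serum. They were transfected either with a hairpin that blocks miR-182 (50 nM) or with a negative control hairpin inhibitor, modelled on a nematode sequence that human cells lack, and RNA was taken 48 h later. The series' design text names the agent a mimic, while the sample labels and protocol name it an inhibitor; both describe a knockdown of miR-182, and the labels' word is used here. Each group held 3 biological replicates with 1 bead array each, and both groups carried a transfected hairpin. A single line was used, so the values describe ES-2 cells alone.

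Nearly all nucleated cells show peptides from their own proteins on class I molecules. Proteasomes cut the proteins, the transporter TAP1/TAP2 carries the peptides into the endoplasmic reticulum, ERAP1 shortens them, and tapasin (the product of TAPBP) helps a heavy chain paired with beta-2-microglobulin (the product of B2M) to bind one. T cells read HLA-B and HLA-C with their peptides, while HLA-E, which presents leader peptides of other class I molecules, is read mainly by natural killer cells, and HLA-F is a less polymorphic relative. Interferons raise the transcription of most of these genes, through interferon regulatory factors (IRFs), the transactivator NLRC5 and NF-kB, and tumours often lower it.

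The labels name miR-182 as the target and give no arm of its hairpin. The mature 5p strand, hsa-miR-182-5p, is shown so that the treatment can be placed. It lies on the minus strand at chr7:129770447-129770470 (GRCh38.p14, RefSeq), and capitals mark its seed, bases 2 to 8, which pairs with target transcripts.
hsa-miR-182-5p: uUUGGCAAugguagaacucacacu

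The promoters of these genes are shown because shared interferon-response elements are the best known reason for class I genes to be regulated as a group. RefSeq's table of promoter windows (GRCh38.p14, 250 bases before to 50 after a gene's start) held 8 of the 9 genes, all but HLA-E. The letters AANNGAAA, the core that IRFs bind, were searched on both strands and are in capitals, merged where 2 matches overlap. They occurred in at least 1 window of all 8 genes, against 22.8% of the 35116 windows of the table and 26.7% of its 27305 genes. The longer tandem form GAAANNGAAA, which contains the core, occurred in 6 of the 8 (B2M, HLA-F, TAP1, TAP2, TAPBP and ERAP1) against 4.38% of all genes. CCAAT, the box bound by NF-Y, occurred in 6 of the 8 (all but TAP2 and TAPBP) against 39.7%. The letters were chosen after the windows had been read, and a match is a description and not a binding site. The windows of B2M and HLA-B are whole, and 60 bases around a match are given for HLA-C, TAP1 and TAPBP.
B2M, chr15:44711267-44711566, strand plus: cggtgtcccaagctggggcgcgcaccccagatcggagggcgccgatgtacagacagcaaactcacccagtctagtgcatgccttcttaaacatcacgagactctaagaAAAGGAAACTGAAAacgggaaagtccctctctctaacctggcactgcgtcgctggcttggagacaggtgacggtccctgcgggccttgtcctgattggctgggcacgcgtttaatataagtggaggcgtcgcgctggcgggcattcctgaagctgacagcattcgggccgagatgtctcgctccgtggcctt
HLA-B, chr6:31357130-31357429, strand minus: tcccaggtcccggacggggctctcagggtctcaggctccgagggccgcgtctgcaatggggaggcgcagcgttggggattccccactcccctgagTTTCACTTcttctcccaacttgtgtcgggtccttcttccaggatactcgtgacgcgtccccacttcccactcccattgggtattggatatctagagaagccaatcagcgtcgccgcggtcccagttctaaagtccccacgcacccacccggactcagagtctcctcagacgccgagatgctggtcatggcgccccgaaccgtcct
HLA-C, chr6:31272210-31272269, strand minus: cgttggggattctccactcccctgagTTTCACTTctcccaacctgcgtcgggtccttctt
TAP1, chr6:32853798-32853857, strand minus: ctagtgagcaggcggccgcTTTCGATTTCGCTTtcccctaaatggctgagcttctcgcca
TAPBP, chr6:33314058-33314117, strand minus: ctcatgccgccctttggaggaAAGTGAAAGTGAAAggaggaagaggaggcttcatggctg
The windows of HLA-B and HLA-C were 88.5% identical in a global alignment, and those of HLA-B and HLA-F 79.7%. Those of B2M and HLA-B reached 47.6%. Counted from the gene's start, the first capital lay at −155 in HLA-B, −151 in HLA-C and −142 in B2M. The heavy chain genes are close copies of each other, and signal on their probes may come in part from a relative's transcript, which was not tested. TAP1 and TAP2 lie close together in the class II part of the same gene complex on chromosome 6, where 7 of the 9 genes are, next to the immunoproteasome genes PSMB8 and PSMB9.

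Array-wide facts were as follows. Between 20365 and 22473 probes per array had a detection p under 0.05, with a median of 40 to 41 beads per probe. Epithelial keratins KRT7, KRT8 and KRT18 were detected on all 6 arrays, whereas CDH1, KRT19 and CLDN4, also epithelial, were detected on none. Of the clear cell markers with a probe, ANXA4, F3, IGFBP1 and SPP1 were detected on all 6 arrays, while NAPSA and GPX3 were detected on none. PAX8, of the same list, was detected on 2 inhibitor arrays and 1 control array. Of the fibroblast markers, COL1A1, PDGFRA and THY1 were detected on all 6 arrays and COL1A2 and LUM on none. Of the endothelial markers, CDH5, ENG and PECAM1 were detected on all 6 arrays and VWF on none. The leucocyte marker PTPRC, which defines white blood cells, was detected on no array, nor were ITGAM and NKG7, whereas CD14, CD68, FCER1G and MS4A1 of the same list were detected on all 6. The mean log2 signal of the 10 leucocyte markers with a probe ran from 5.18 to 5.27 on inhibitor arrays and from 5.22 to 5.25 on control arrays, and the part of these markers in the results was not tested. The level of miR-182 itself was not analysed here.

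The 9 genes were compared between the groups after background correction and quantile normalization to log2, with limma over all 12087 genes detected on at least 3 of the 6 arrays, 1 probe (the brightest) per gene. None of the 9 passed at an adjusted p under 0.05, higher or lower, and 0% of all genes tested passed. The lowest adjusted p among the 9 was 0.624, for HLA-E. At an unadjusted p under 0.05 there were 2 of the 9, B2M and HLA-E, both with less signal under the inhibitor (0 to 2 of the 9 under the alternatives, and 0 without control replicate 2), where 7.65% of all genes reached that level in either direction and 4.15% with less signal. The log2 difference, inhibitor minus control, was below 0 in 7 of the 9 genes and in 50% of all genes tested. The median of the 9 was −0.11, against 1.5e-05 over all genes tested. Their 95% intervals together ran from −0.50 (HLA-E) to 0.20 (HLA-C), each reaching 0.14 to 0.26 to either side of its difference. These intervals are not adjusted for the number of genes, and in this gene fit those of B2M and HLA-E lay wholly below 0. Small differences could not be resolved with 3 arrays per group. In RNA from whole cultures, fewer cells that express a gene and less RNA per cell cannot be told apart.

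B2M encodes the invariant light chain that every classical class I molecule needs to reach the surface. Its brightest probe (ILMN_1725427) read 11.81, 11.88 and 11.94 on inhibitor arrays 1 to 3 and 12.08, 12.12 and 11.95 on control arrays 1 to 3, in normalized log2 signal. All inhibitor values were below all control values, but the nearest pair, inhibitor replicate 3 and control replicate 3, lay only 0.0029 apart. The difference was −0.17 ± 0.073 (SE, n = 3 per group; 0.889-fold, adjusted p = 0.635 in limma). A second probe of B2M read 11.14, 11.23 and 11.40 with the inhibitor and 11.33, 11.32 and 11.49 with the control. Here the groups overlapped, and the difference was −0.12 ± 0.089, in the same direction.

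HLA-E had the difference farthest from 0 of the 9 genes. Its only probe (ILMN_1765258) read 8.42, 8.78 and 8.78 with the inhibitor and 8.80, 8.96 and 9.01 with the control. The groups did not overlap, with a gap of 0.019, and inhibitor replicate 1 stood lowest. The difference was −0.26 ± 0.11 (0.835-fold, adjusted p = 0.624 in limma), and it shrank to −0.14 without inhibitor replicate 1. In all, 2 of the 9 genes had groups that did not overlap, both lower with the inhibitor, where 6.23% of all genes had this order and 6.8% the opposite one. In the deposited signals, before any normalization, the groups of both genes overlapped: B2M signal was 3237, 4247 and 3772 with the inhibitor against 4547, 4596 and 3840, and HLA-E signal 340.7, 522.4 and 446.1 against 495.6, 541.5 and 501.9 intensity units. They also overlapped when arrays were left unnormalized and when only their medians were equalised, and were apart in the authors' deposited table of values.

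**Figure D1:**
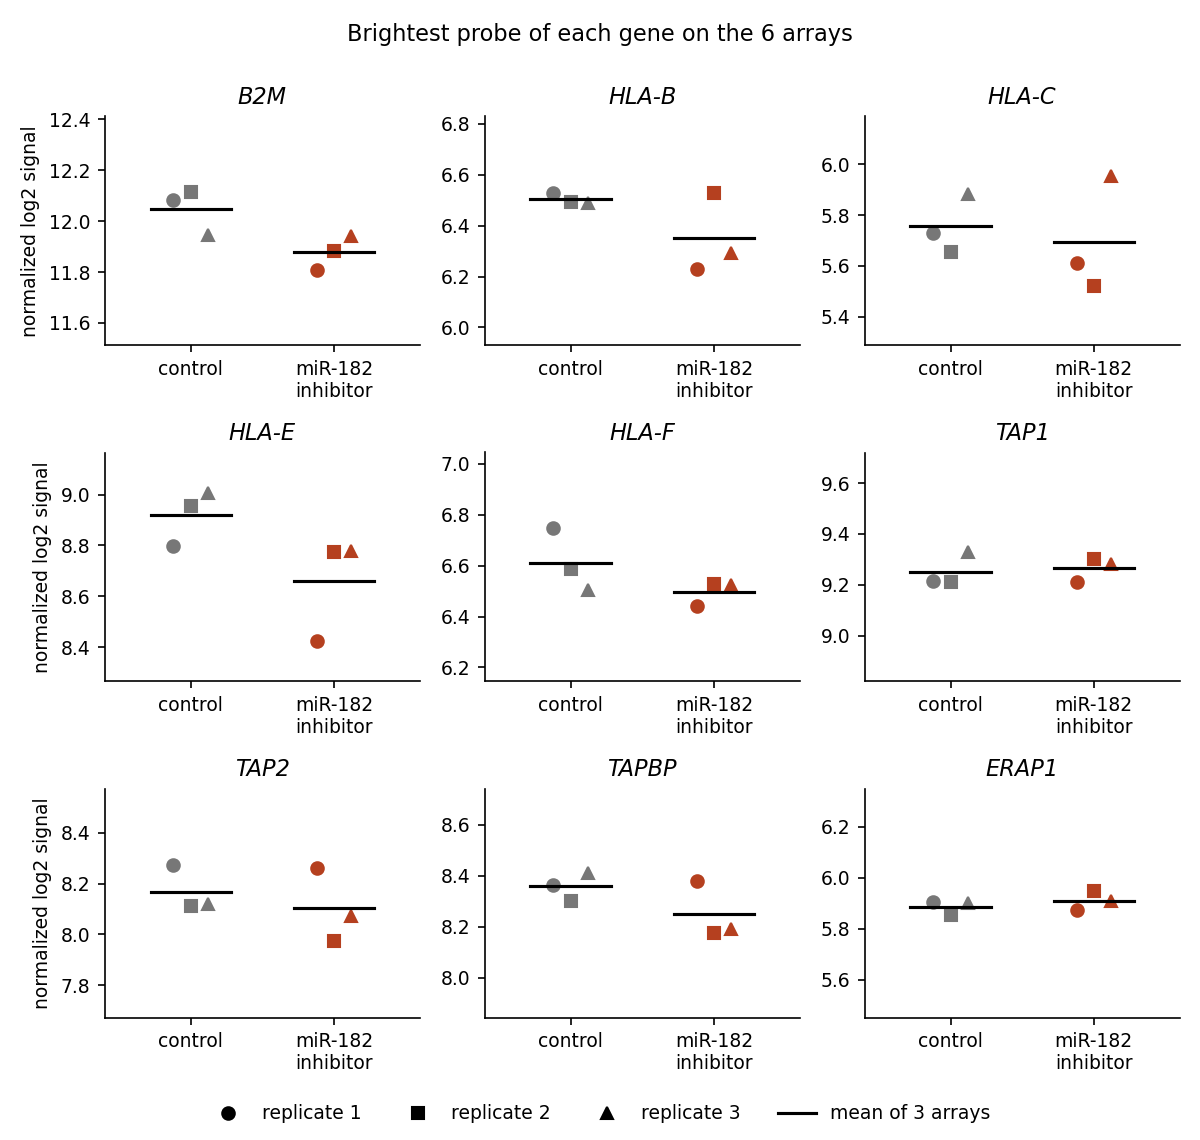
Normalized log2 signal of the brightest probe of each of the 9 genes on the 3 control arrays (grey) and the 3 miR-182 inhibitor arrays (red), symbols giving the replicate number and bars the mean; every panel spans the same height on its own axis. The groups lie apart in B2M, where inhibitor replicate 3 and control replicate 3 nearly touch at 11.94 and 11.95, and in HLA-E, and overlap in the other panels.

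The other heavy chains also had negative differences, each with groups that overlapped. HLA-B, which presents peptides to cytotoxic T cells, read 6.23, 6.53 and 6.29 with the inhibitor and 6.53, 6.49 and 6.49 with the control. Inhibitor replicate 2 was the highest of all 6 arrays, just above the control range, with the other inhibitor arrays below it, and the control arrays differed by far less among themselves (SD 0.021) than the inhibitor arrays (SD 0.16). The difference was −0.15 ± 0.084 (adjusted p = 0.721 in limma), −0.24 without inhibitor replicate 2 and −0.094 without inhibitor replicate 1. HLA-C, its close relative, read 5.61, 5.52 and 5.95 with the inhibitor and 5.73, 5.66 and 5.88 with the control. Inhibitor replicate 3 was the highest of all 6 arrays, and the groups overlapped widely. The difference was −0.059 ± 0.11 (adjusted p = 0.929) and changed sign when 1 array was left out, to 0.026 without inhibitor replicate 2 and 0.0046 without control replicate 3, against −0.19 without inhibitor replicate 3. A second probe of HLA-C was not well above background on any array (33.3 to 44.1 intensity units). The brightest probes were dim too, at 97.1 to 129.9 units for HLA-B, 73.4 to 86.7 for HLA-C and 106.2 to 140.5 for HLA-F. Array medians were 43.5 to 49.4 units, and B2M read 3237 to 4596. Without background correction HLA-B was at −0.10, HLA-C at −0.031 and HLA-F at −0.080, while B2M stayed at −0.17. How far background narrows the differences of such dim probes was not tested.

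HLA-F, which can reach the surface without peptide, read 6.44, 6.53 and 6.52 with the inhibitor and 6.75, 6.59 and 6.50 with the control. Control replicate 1 stood highest, and control replicate 3 fell within the inhibitor range. The difference was −0.11 ± 0.077 (adjusted p = 0.747 in limma), and −0.047 without control replicate 1. The second HLA-F probe, annotated to another transcript of the gene, was not well above background on any array. So the 4 heavy chains among the 9 genes lay below 0, although for HLA-C that direction depended on single arrays.

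The peptide transporter showed no common direction. TAP1, a subunit of the pump, read 9.21, 9.30 and 9.28 with the inhibitor and 9.22, 9.21 and 9.33 with the control. The ranges of the groups were nearly the same, and the difference of 0.013 ± 0.067 (95% interval −0.14 to 0.16, adjusted p = 0.987 in limma) turned to −0.012 with arrays left unnormalized and −0.036 with their medians equalised. TAP2, its partner, read 8.26, 7.97 and 8.07 with the inhibitor and 8.27, 8.11 and 8.12 with the control. In both groups replicate 1 was the highest, and the difference was −0.064 ± 0.088 (adjusted p = 0.894), or −0.15 without inhibitor replicate 1 and −0.00034 without inhibitor replicate 2. A second TAP2 probe, annotated to another transcript, ran from 7.19 to 7.29 with the inhibitor and from 7.17 to 7.27 with the control and gave 0.02 ± 0.071.

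TAPBP, whose product tapasin holds the heavy chain beside the transporter, read 8.38, 8.17 and 8.19 with the inhibitor and 8.37, 8.30 and 8.41 with the control. Inhibitor replicate 1 lay within the control range and the other inhibitor arrays below it. The difference was −0.11 ± 0.076 (adjusted p = 0.751 in limma), or −0.18 without inhibitor replicate 1. Of its other probes, each annotated to a further transcript, the second gave −0.11 ± 0.15, with control arrays from 5.54 to 6.17, and the third −0.0031 ± 0.11. ERAP1, the aminopeptidase of the endoplasmic reticulum, had the least spread, with 5.87, 5.95 and 5.91 under the inhibitor and 5.90, 5.85 and 5.90 under the control. The groups overlapped and the difference was 0.023 ± 0.061 (95% interval −0.12 to 0.16, adjusted p = 0.96). Its second probe, annotated to another transcript, was not well above background on any array. The first ERAP1 probe was dim as well, at 77.8 to 96.3 intensity units, so its small difference carries the same limit as those of HLA-B and HLA-C.

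Each of the 13 probes that passed the detection filter did so on all 6 arrays, so none entered through 1 group alone, and the 3 that did not were detected on none. In a fit of every detected probe on its own, 0 of the 13 passed at an adjusted p under 0.05, as did 0% of all 21349 probes. Only HLA-E had an unadjusted p under 0.05 there, which 6.91% of all probes had. Of the 13 probes 10 lay below 0, with B2M, TAP2 and TAPBP each counted more than once. In the gene fit 50% of all genes tested lay below 0, and the share over all 21349 probes was not counted. The standard error of a probe's mean over its own beads was 2.24% to 6.69% of the deposited signal, so bead noise was part of the spread, which between replicates was 0.033 (ERAP1) to 0.18 (HLA-C) log2 units (pooled SD).

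**Figure D2:**
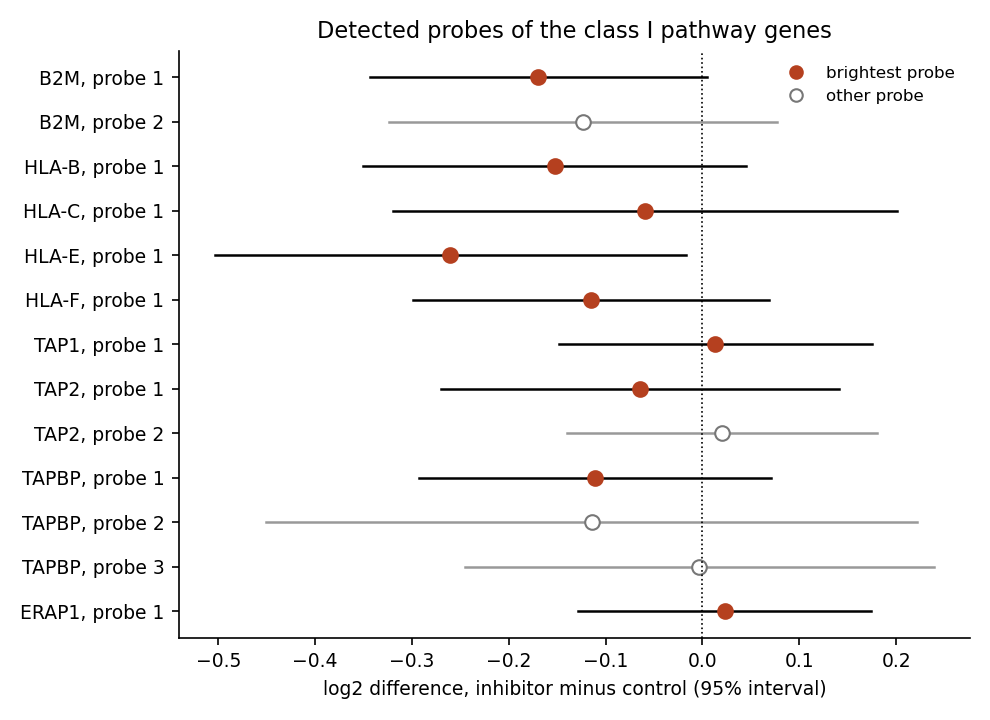
Log2 difference, inhibitor minus control, of the 13 detected probes of the class I pathway genes with 95% intervals from the fit of all 21349 detected probes, filled for the brightest probe of a gene and open for the others. Of the 13 intervals, that of HLA-E (−0.50 to −0.017) lies wholly below 0, and the upper end for the first B2M probe is 0.0046.

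The mean of the 9 genes, each centred on its own mean over the arrays, was −0.09, −0.047 and −0.012 on inhibitor arrays 1 to 3 and 0.065, 0.025 and 0.059 on control arrays 1 to 3. Inhibitor replicate 1 was thus the lowest array for the genes as a group, and control replicates 1 and 3 the highest. Inhibitor replicate 1 also had the fewest detected probes (20365) and control replicate 1 the most (22473), and the part of this in the order was not tested. Once the group means were taken out, the members did not move as 1 block over the 6 arrays: the correlation of a gene with the mean of the other 8 ran from −0.68 (TAPBP) and −0.64 (TAP2) to 0.39 (TAP1) and 0.60 (ERAP1), as a description over 6 arrays that share their normalization. Outside all lists, the genes whose 6 values were most like the mean of the 9 were TWIST1, a transcription factor (Pearson r = 0.993), POLR1H, a subunit of RNA polymerase I (0.971), TFG, a protein of endoplasmic reticulum exit sites (0.970), RAC3, a small GTPase (0.963), and PPIH, a cyclophilin of the spliceosome (0.962). These were picked as the highest of 5354 genes over 6 arrays, and none passed the test, with log2 differences from −0.21 (RAC3) to −0.088 (TFG, or 0.0073 as the mean of its probes).

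The rest of the pathway, with class II and control genes, was read from 8 lists of 131 genes, of which 120 had a named probe and 101 were tested. No gene on them passed at an adjusted p under 0.05, and 5 of the 101 (4.95%) had an unadjusted p under 0.05, against 7.65% of all genes tested. The median difference of the 101 was 0.0057, with 55 above and 46 below 0. Of the 101, 6 had groups apart in each direction, where 6.23% of all genes were apart and lower and 6.8% apart and higher. Peptide loading and trimming partners had 0 of 16 tested genes past the test in either direction and a median of 0.014. The lectin chaperones of the folding heavy chain, CANX and CALR, lay at 0.14 ± 0.066 (0.053 with its second probe) and −0.045 ± 0.11. TAPBPL, a tapasin-related peptide editor, lay at 0.12 ± 0.077, and ERAP2, the partner of ERAP1, at 0.15 ± 0.085 (0.029 with its second probe). Both depended on 1 array, with TAPBPL at 0.059 without inhibitor replicate 2 and ERAP2 at 0.061 without control replicate 2. The chaperone HSPA5 lay at −0.07 ± 0.072, UGGT1, which marks misfolded glycoproteins, at −0.094 ± 0.068, and the glucosidase II subunits GANAB and PRKCSH at −0.0082 ± 0.11 and −0.068 ± 0.082. Second probes of UGGT1 and PRKCSH gave −0.20 and −0.21.

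Cytosolic peptidases that cut or destroy peptides before transport lay on both sides of 0. BLMH was at −0.14 ± 0.075 (−0.091 without control replicate 1), TPP2 at −0.073 ± 0.074 (0.059 with its second probe), LAP3 at 0.017 ± 0.081, THOP1 at 0.036 ± 0.07, NPEPPS at 0.045 ± 0.063 (−0.12 with its second probe) and NRDC at 0.079 ± 0.066. HM13, the signal peptide peptidase that releases leader peptides for HLA-E, was at 0.01 ± 0.063 (0.11 with its second probe), and SPPL2A, a related protease, at 0.05 ± 0.068. None of these had an adjusted p under 0.721 in limma, the value of BLMH.

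Of the immunoproteasome and its activator, 0 of 7 genes passed, with a median of 0.05. The catalytic subunits PSMB8, PSMB9 and PSMB10 lay at −0.07 ± 0.066, 0.05 ± 0.078 and 0.073 ± 0.068, and their assembly factor POMP at 0.096 ± 0.066. PSME1 and PSME2, the interferon-inducible subunits of the PA28 activator, lay at −0.17 ± 0.083 (−0.087 with its second probe) and −0.18 ± 0.13, and PSME3, the nuclear PA28 subunit, at 0.14 ± 0.063 (0.0034 with its second probe). PSME1 had its groups apart and lower with the inhibitor by a narrow gap (10.99 at the highest against 10.99 at the lowest control array), and PSME3 apart and higher, with adjusted p-values of 0.681 and 0.639 in limma. PSME1 lay at −0.093 without inhibitor replicate 1. For PSME2, control replicate 1 lay at 9.51, below all inhibitor arrays (9.53, 9.68 and 9.72), while the other control arrays were above them at 9.97 and 10.0. Its difference was −0.34 without control replicate 1, −0.11 without control replicate 2 and −0.096 without control replicate 3.

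**Figure D3:**
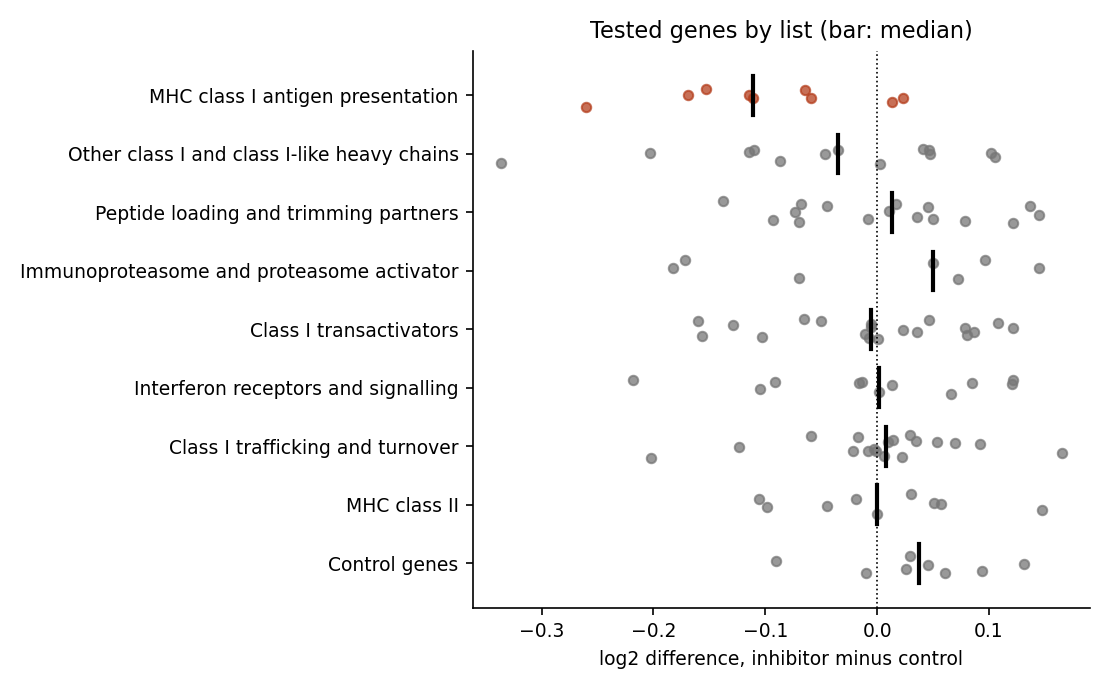
Log2 difference, inhibitor minus control, of each tested gene of the 9 class I pathway genes (red) and of 8 further lists (grey), 1 point per gene with a bar at the median of each list and points shifted vertically for legibility. The median of the 9 genes is −0.11 and those of the other lists lie between −0.035 and 0.05.

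Regulators of class I genes lay around 0, with 0 of 19 transactivators past the test and a median of −0.0056. The farthest from 0 were RFXANK, a subunit of the RFX complex that binds class I and class II promoters (−0.16 ± 0.061, −0.0029 with its second probe), and USF1, an E-box factor (−0.16 ± 0.12, −0.21 with its second probe). USF1 lay at −0.28 without control replicate 1, −0.065 without control replicate 2 and −0.093 without inhibitor replicate 3. Interferon receptors and signalling genes had 0 of 11 past the test and a median of 0.0019, with SOCS1, a feedback inhibitor of JAK kinases, at −0.22 ± 0.091 and the kinase JAK2 at 0.12 ± 0.073. SOCS1 lay at −0.14 without control replicate 3 and JAK2 at 0.063 without inhibitor replicate 2. Trafficking and turnover genes (0 of 18, median 0.0078) had ERGIC1, a protein of the ER-Golgi intermediate compartment, at −0.20 ± 0.12 and SPPL3, a protease of the Golgi, at 0.17 ± 0.10. ERGIC1 lay at −0.34 without control replicate 1, −0.12 without control replicate 2 and −0.12 without inhibitor replicate 2. SPPL3 lay at 0.26 without control replicate 1, 0.10 without control replicate 2 and 0.25 without inhibitor replicate 3. Class II genes (0 of 9, median 1.5e-05) had CD74, the invariant chain, at 0.15 ± 0.089 (−0.15 with its second probe, and 0.061 without control replicate 2) and HLA-DMA, which edits class II peptides, at −0.11 ± 0.064. The control genes ACTB and GAPDH lay at 0.06 ± 0.071 and 0.026 ± 0.076, and both turned below 0 with array medians equalised (−0.010 and −0.058), as GAPDH did with arrays left unnormalized (−0.034) and in the authors' deposited table of values (−0.018).

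Other class I and class I-like heavy chains had 0 of 13 tested genes past the test and a median of −0.035. HLA-G, a nonclassical heavy chain gene, lay at 0.041 ± 0.11. HLA-H, a related pseudogene, lay at 0.0029 ± 0.061 (0.12 with its second probe). Both were named after their values were seen. The brightest HLA-H probe averaged 8.56 in each group. With the inhibitor and the control, HLA-B averaged 6.35 and 6.50, and HLA-C 5.70 and 5.76. What share of the HLA-H signal came from other heavy chain transcripts was not tested. The 2 genes with fitted differences farthest from 0, RAET1E and MICA, encode ligands of NKG2D, an activating receptor of natural killer and T cells. The other tested NKG2D ligands of the list, also named after their values were seen, lay on both sides of 0. They were MICB (−0.087 ± 0.093), ULBP3 (−0.046 ± 0.088) and RAET1G (0.047 ± 0.086), each with groups that overlapped. RAET1E was not well above background with the inhibitor and was detected on all 3 control arrays, so it entered the test through the control group alone, and its fitted difference and p rest on inhibitor signals at background. Its mean control signal was at least 1.14-fold higher, a bound that leaves out the spread between arrays. The values were 4.42, 4.47 and 4.42 with the inhibitor against 4.63, 4.84 and 4.84 with the control (adjusted p = 0.546 in limma). MICA read 7.61, 7.69 and 7.47 with the inhibitor and 7.76, 7.80 and 7.81 with the control. Its groups lay apart, and the difference was −0.20 ± 0.073 (adjusted p = 0.602).

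**Figure D4:**
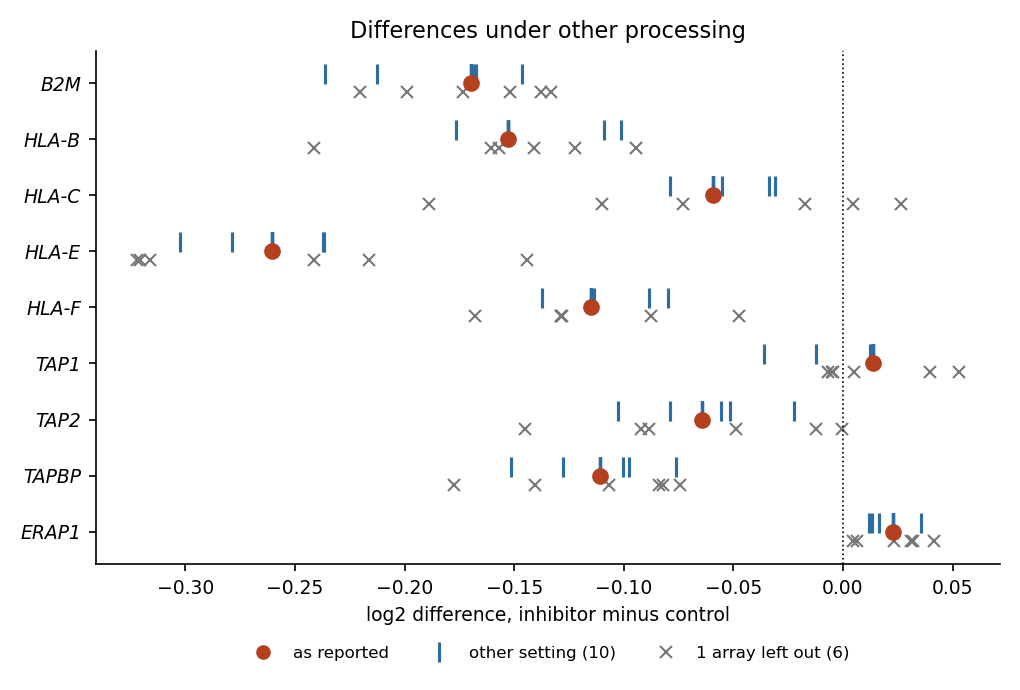
Log2 difference of the 9 genes as reported (red points), under 10 other processing settings (blue bars) and with 1 of the 6 arrays left out in turn (grey crosses). B2M, HLA-B, HLA-E, HLA-F, TAP2 and TAPBP stay below 0 throughout, TAP2 by as little as −0.00034. ERAP1 stays above 0, by as little as 0.0047, while TAP1 and HLA-C cross it.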

How the data were processed

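Total RNA of ES-2 cells was hybridised to Illumina bead arrays, 1 per sample. Per the file headers, the deposited array files give each probe's linear signal intensity, its bead standard deviation, its count of beads and a detection value, a fraction from 0 to 1. Per the submitters' processing notes BeadStudio was used. The deposited value table holds linear intensities on 1 common distribution. One minus the detection fraction served as detection p. Bead addresses were joined to probe names by their signal ranks over the 6 arrays, unique for all 48803 probes; the platform annotation gave 28098 of them 1 gene, 13 several and 20692 none.

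Signals were processed with neqc of limma 3.58.1 (R 4.3.3; offset 16, quantile, log2), kept at detection p under 0.05 on at least 3 arrays (21349 probes, 12087 genes, brightest probe per gene) and compared with lmFit and eBayes, 2-sided, Benjamini-Hochberg adjusted over all genes, threshold 0.05. The fit was tested on simulated data. Every detected probe was also fitted on its own. For a fold bound, an undetected probe took the lowest detected signal of its array, or its own signal where greater. Named were the 9 genes and their probes, all tested genes of the loading and proteasome lists, the 2 farthest from 0 of the other lists, ACTB, GAPDH and the 5 genes most like the mean of the 9 among those with mean log2 signal above 8. The genes and lists were chosen with earlier results of these data known. Alternatives were a replicate block, other scalings, backgrounds, filters, probe summaries and priors, the value table, and leaving out each array. Slide and scan date are not given in the sources used here. The numbers in the sample titles run through the inhibitor arrays first and then the control arrays, and what they stand for is not given. Any effect that goes with this order cannot be told apart from the treatment.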

Additional observations from a re-analysis of the deposited data

How the results depend on the processing

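With 3 arrays per group and log2 intervals of 0.14 to 0.26 to each side for the 9 genes, small shifts could not be resolved. No member and no pathway gene passed under any of the 16 alternatives. Blocking on replicate number gave HLA-E an adjusted p of 0.613 and B2M 0.706 and still called 0 of all genes, with 880 against 925 at an unadjusted p under 0.05; deviations of same-numbered arrays correlated at 0.020, 0.0032 and −0.0060, so the numbers were not taken to pair them. All-gene calls were 5 without normalization between arrays, 7 under median scaling and 0 under the other alternatives. Of the 9 genes, 0 to 2 had an unadjusted p under 0.05. The adjusted p ran from 0.474 to 1 for B2M and from 0.509 to 1 for HLA-E. Of the 9 genes, 6 to 8 lay below 0 under all settings run. Of 836 recomputed log2 differences, 795 kept their direction and side of the threshold and 41 reversed, to values from −0.11 to 0.13. Median scaling shifted the median of all genes to −0.037, and the value without normalization between arrays was −0.014. Under median scaling TAP1 was at −0.036, ACTB −0.010, GAPDH −0.058, HM13 −0.045, LAP3 −0.032, NPEPPS −0.0090, THOP1 −0.022, TAP2 probe 2 −0.010 and TAPBP probe 3 0.00038. Without normalization between arrays TAP1 was at −0.012, GAPDH −0.034, HM13 −0.022, LAP3 −0.0085 and TAPBP probe 3 0.024. With the mean of a gene's detected probes GAPDH was at −0.013, NPEPPS −0.11 and TFG 0.0073, and in the authors' value table GAPDH was at −0.018. With 1 array left out, ranges crossed 0 for HLA-C (−0.19 to 0.026), TAP1 (−0.0070 to 0.053), CALR (−0.14 to 0.047), GANAB (−0.12 to 0.094), PRKCSH (−0.13 to 0.0091), LAP3 (−0.051 to 0.081), HM13 (−0.013 to 0.033), PSMB9 (−0.00019 to 0.11), GAPDH (−0.010 to 0.086), TAP2 probe 2 (−0.011 to 0.051), TAPBP probe 2 (−0.31 to 0.0019) and TAPBP probe 3 (−0.088 to 0.13). Apart from the arrays left out, the cause was not tested.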
